A study of Homo sapiens with 6 samples.

Results

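The circadian clock genes described here are 10 genes of the 58735 in the table: the period genes PER1, PER2 and PER3, the cryptochromes CRY1 and CRY2, the activator CLOCK, the nuclear receptors NR1D1 and NR1D2, the output factor DBP and the repressor CIART. They were chosen by name. RNA came from A375, an established human malignant melanoma line, in 2 groups of 3 libraries labelled PAL and control. PAL is Ringer's lactate activated by low-temperature plasma. The labels give no dose, exposure time, hour of harvest or clock synchronisation, and the PAL columns of the table carry a number that no source used here explains. They also do not say whether replicates were separate cultures, so the spread behind each p-value may be technical. In bulk RNA, fewer cells with a transcript and less of it per cell cannot be told apart.

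PER1 was the clock gene with the largest fall, from 4.85 ± 1.40 FPKM in control to 1.85 ± 0.135 in PAL (mean ± SD, n = 3 each), a 2.62-fold difference. DBP fell 1.85-fold from a lower level, and NR1D2 fell only 1.11-fold. CRY1, CRY2, CLOCK and NR1D1 did not pass the test, which does not show that they were unchanged. FPKM scales a gene's reads by its exon length and by the size of the library. The limma test was run on log2(FPKM + 1), with p-values adjusted over 12258 genes and a threshold of 0.05. It tested 7 of the 10 clock genes and called 3 of them lower and 0 higher. At an unadjusted p below 0.05 there were 4 lower and 0 higher, and voom, limma's model for reads, also called 0 higher. Among all genes tested, 14.5% were called lower and 11.4% higher. DBP entered the test through its control libraries alone, as they reached 1 FPKM, and with no such filter PER1 alone was called.

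The clock is a feedback loop of transcription. CLOCK pairs with BMAL1 (ARNTL in the table) and drives the PER and CRY genes through a DNA element called the E-box. PER and CRY proteins return to the nucleus and inhibit that pair. REV-ERB proteins, from NR1D1 and NR1D2, repress ARNTL in a second loop, and DBP carries the rhythm to genes with a D-box. PER1 and PER2 are also known as genes that respond within hours to serum, cAMP, glucocorticoids and cell stress, outside their daily rhythm.

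Reads assigned to genes ranged from 15064971 to 17711389 per library. The melanocyte lineage factor SOX10 stood at 86.4 to 89.8 FPKM in control and 106.5 to 108.4 in PAL. S100B stood lower in PAL, at 4.52 to 5.54 and 3.89 to 4.24, and MITF at 2.32 to 2.40 and 2.12 to 2.38. The pigment genes MLANA and TYR were at or near 0. Keratinocyte markers summed to 3.56 to 4.38 FPKM in control and 2.63 to 3.28 in PAL, mostly KRT14 at 2.57 to 4.25, with KRT1 at 0 throughout. Fibroblast markers summed to 0.681 to 0.922 and 0.529 to 0.639, and immune and endothelial markers to below 0.3 in every library. The part of these markers in the clock results was not tested. The libraries labelled control held much inducible stress RNA: HSPA6, a stress-inducible HSP70, was at 1685 to 1999 FPKM there and at 20.7 to 73.2 in PAL. FOS, an immediate early gene, gave 94.9, 75.9 and 32.8 FPKM in the 3 controls, against 9.60, 10.5 and 23.9 in PAL. The part of this stress state in the clock results was not tested, and each direction here follows the labels as given.

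The regions before the RefSeq starts show how the clock genes differ in the elements named above. All 10 genes matched the RefSeq promoter table (build GRCh38.p14), with 14 starts, and the 250 bases before each start were searched on both strands. Some of these starts lie inside the gene spans given below, among them those of PER1 and PER2 and the second of NR1D2. Their windows are thus not upstream of the whole gene. The PER3 stretch belongs to its first start, and the window of its second start held none of the elements. Capitals mark the E-box CACGTG, the noncanonical E-box CACGTT, the D-box TTATGTAA, the ROR/REV-ERB element AGGTCA and the short cAMP response element TGACG, or their reverse complements. The stretches shown hold no annotated exon base and run 5′ to 3′ on the gene's strand.
PER1, minus strand, chr17:8152518-8152602: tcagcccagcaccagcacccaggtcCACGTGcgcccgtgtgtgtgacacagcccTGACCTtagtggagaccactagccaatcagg
PER2, minus strand, chr2:238288634-238288832: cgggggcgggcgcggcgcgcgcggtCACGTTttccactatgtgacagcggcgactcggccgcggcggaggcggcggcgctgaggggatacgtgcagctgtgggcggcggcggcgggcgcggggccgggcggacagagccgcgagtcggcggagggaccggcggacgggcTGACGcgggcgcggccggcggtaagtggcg
PER3, plus strand, chr1:7784089-7784146: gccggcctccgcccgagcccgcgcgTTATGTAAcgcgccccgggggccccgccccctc
NR1D2, plus strand, second start, chr3:23945892-23946120: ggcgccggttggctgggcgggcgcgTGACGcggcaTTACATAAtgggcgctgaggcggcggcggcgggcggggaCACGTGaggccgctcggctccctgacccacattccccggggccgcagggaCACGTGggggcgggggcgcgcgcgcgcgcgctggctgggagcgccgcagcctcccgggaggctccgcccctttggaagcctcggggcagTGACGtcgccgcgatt
CIART, plus strand, chr1:150282400-150282527: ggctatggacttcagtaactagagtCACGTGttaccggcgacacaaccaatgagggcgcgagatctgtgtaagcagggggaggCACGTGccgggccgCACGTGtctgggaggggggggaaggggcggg

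E-boxes lay in 3 of the 14 windows, those of 3 of the 10 genes. PER1 held 1, starting 173 bases before its RefSeq start, which lies inside the gene span. NR1D2 held 2, and CIART held 3, starting 129, 71 and 57 bases before its start. Of all 35116 promoters in the table, 6.34% held an E-box and 0.0797% held at least 3. The D-box was found for PER3 and NR1D2 (2 windows, 0.834% of promoters searched), and the ROR/REV-ERB element for PER1 and CRY2 (3 windows, 12.1%). The noncanonical E-box, added to the search later, was in 5 of the 10 genes (5 windows, 4.55% of promoters searched). The short cAMP element was in 4 genes (5 windows, 21.2%). The full cAMP element TGACGTCA and the heat shock element GAANNTTC were in none of the 14 windows, and in 1.65% and 5.78% of the promoters searched. At shares this low, 14 windows cannot show that the clock genes lack either element, and sites farther away were not searched. None of these letters was found in the window of DBP.

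Among the period genes, which encode the inhibitors of CLOCK, PER1 (hg38 chromosome 17, 8140472 to 8156506) measured 3.93, 4.16 and 6.46 FPKM in the controls, in replicate order, and 2.00, 1.82 and 1.73 in PAL. Every PAL library lay below every control library, and control replicate 3 lay well above the other controls. The values rest on 213 to 701 reads per library. PER1 fell by 1.01 ± 0.15 (SE) on the log2(FPKM + 1) scale, with a limma adjusted p of 0.00473. Without control replicate 3 the fall was 0.83 (adjusted p = 0.00110) and the ratio of means 2.19. PER1 passed under each of the 17 alternatives that tested it, with falls of 0.79 to 1.36.

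PER2 (chromosome 2, 238244038 to 238290102) was lower in level, at 0.753, 0.609 and 0.760 FPKM in control and 0.324, 0.505 and 0.616 in PAL. PAL replicate 3 lay just above the lowest control library, so the groups overlapped, and PAL replicate 1 was the lowest. PER2 stayed under the filter of at least 1 FPKM in 3 libraries, as did PER3 and CIART, and was not in the main test. With 41 to 82 reads per library, it could be tested with voom on genes with at least 10 reads in at least 3 libraries, an alternative chosen after the data were seen. There PER2 was lower by 0.60 on the log2 scale (95% interval -1.05 to -0.15, adjusted p = 0.0441). It did not pass in the fit on log2(FPKM + 1) with no filter (adjusted p = 0.312).

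PER3 (chromosome 1, 7784320 to 7845177) stood at 0.335, 0.533 and 0.407 FPKM in control and 0.282, 0.288 and 0.369 in PAL, with overlapping groups. Its voom difference was -0.41, with a 95% interval from -0.87 to 0.047 (adjusted p = 0.180). The 3 period genes thus had point estimates below 0, and they differed in how firmly: PER1 passed in both models, PER2 in the read model alone, and PER3 in neither. Whether PER1 differed from PER2 or PER3 in its fall was not tested. In this read model 15.4% of 15481 genes were called lower and 11.4% higher, and of the 9 clock genes it tested 5 were lower (PER1, PER2, CRY1, NR1D2 and DBP) and 0 higher.

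**Figure D1:**
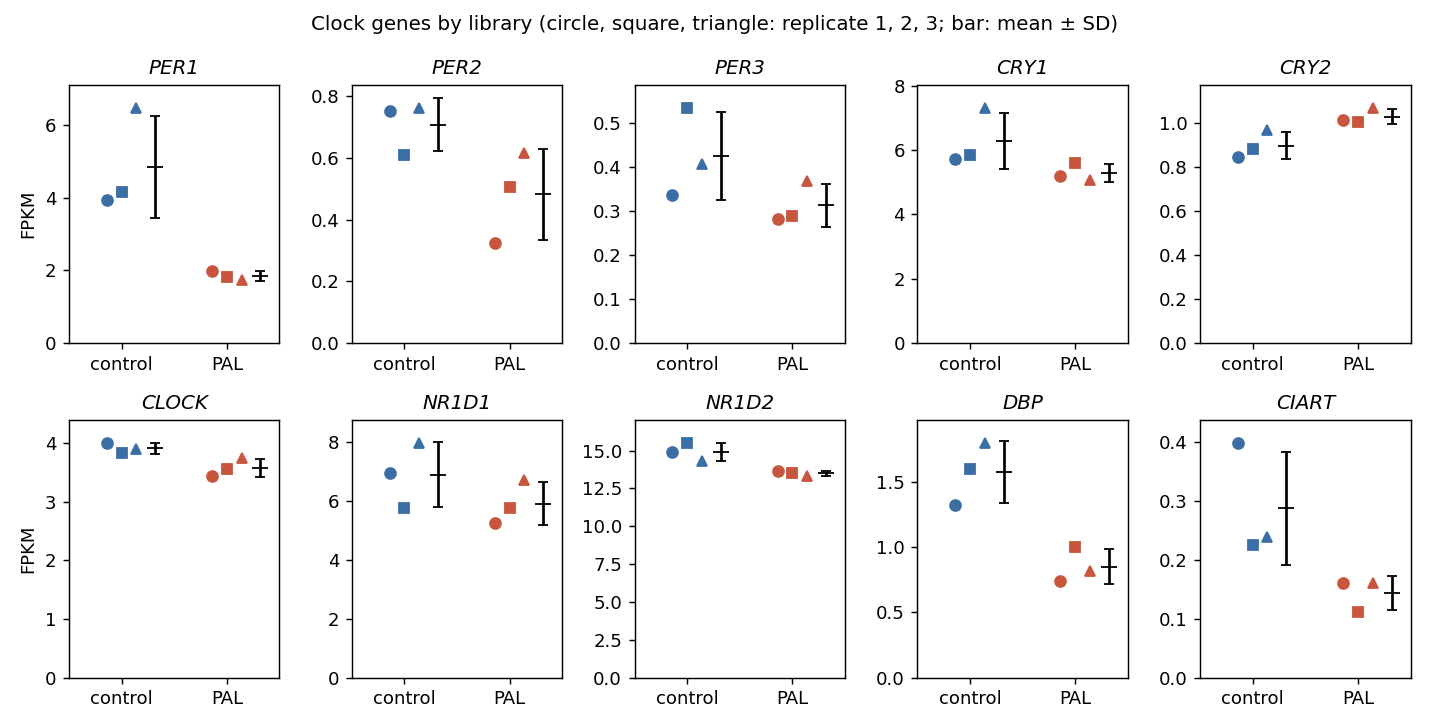
FPKM (vertical axes, each from 0) of the 10 clock genes in the 3 control and 3 PAL libraries, with symbols for replicates 1, 2 and 3 and bars for mean ± SD. PER1 and DBP separate clearly, from 4.85 to 1.85 and from 1.57 to 0.850 FPKM, while PER2, PER3 and NR1D1 overlap between groups.

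The cryptochromes, the partners of PER in repression, went in opposite directions by their means. CRY1 (chromosome 12, 106991364 to 107093829) stood at 5.73, 5.85 and 7.30 FPKM in control and 5.19, 5.61 and 5.06 in PAL. The groups did not overlap, and control replicate 3 was again the highest library. CRY1 did not pass in limma (log2 difference -0.21 ± 0.09 SE, adjusted p = 0.121), and passed as lower with voom on reads (-0.25, adjusted p = 0.0408). Over its 18 alternatives, the adjusted p ranged from 0.0402 to 0.343.

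CRY2 (chromosome 11, 45847118 to 45883248) stood at 0.846, 0.882 and 0.968 FPKM in control and 1.02, 1.00 and 1.07 in PAL. It was the one clock gene with a higher mean in PAL, and its groups did not overlap. Only its PAL libraries reached the 1 FPKM of the filter, and the difference of 0.10 ± 0.07 (SE) did not pass (limma adjusted p = 0.361). The voom estimate was 0.20, with a 95% interval from -0.09 to 0.49. The ratio of CRY2 to CRY1 within a library was 0.148, 0.151 and 0.133 in control and 0.196, 0.179 and 0.211 in PAL, with no overlap. Such a ratio does not depend on how libraries are scaled.

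CLOCK (chromosome 4, 55427903 to 55547138), the DNA-binding activator, differed little. It was at 4.0, 3.82 and 3.90 FPKM in control and 3.43, 3.56 and 3.74 in PAL. All PAL libraries lay slightly below the controls, by 0.10 ± 0.05 (SE) on the log2 scale, which did not pass (limma adjusted p = 0.179). The 95% interval with voom was -0.25 to -0.0067.

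Levels were also set against CLOCK within each library. The ratio of PER1 to CLOCK was 0.984, 1.09 and 1.66 in control and 0.581, 0.512 and 0.462 in PAL. The ratio of DBP to CLOCK was 0.331, 0.418 and 0.461 in control and 0.215, 0.280 and 0.217 in PAL. Neither ratio overlapped between groups. The ratio of PER2 to CLOCK was 0.189, 0.159 and 0.195 in control and 0.0944, 0.142 and 0.165 in PAL, and overlapped. The ratio of PER1 to PER2 overlapped as well, at 6.85 ± 1.64 in control and 4.19 ± 1.75 in PAL (n = 3 each). NR1D2 to CLOCK was 3.82 ± 0.202 in control and 3.78 ± 0.210 in PAL (n = 3 each), with overlapping groups.

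**Figure D2:**
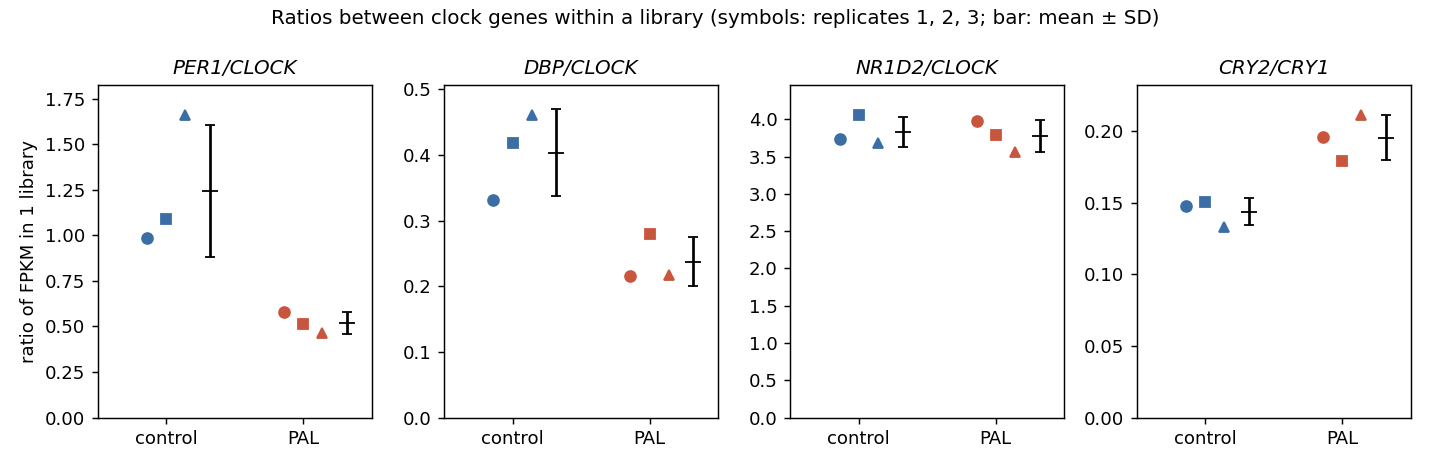
Ratios of FPKM between clock genes within 1 library (vertical axes, from 0) for control and PAL, with symbols for replicates 1, 2 and 3 and bars for mean ± SD. PER1/CLOCK drops from 1.24 to 0.518 and DBP/CLOCK from 0.403 to 0.238, CRY2/CRY1 is higher in PAL, and NR1D2/CLOCK overlaps.

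The REV-ERB receptors are repressors that take heme as a ligand. NR1D2 (chromosome 3, 23945260 to 23980618), the highest clock gene in both groups, stood at 14.9, 15.5 and 14.3 FPKM in control and 13.7, 13.5 and 13.3 in PAL. The groups did not overlap and the spread was narrow, on 1293 to 1462 reads. NR1D2 fell by 0.14 ± 0.04 (SE) on the log2 scale (limma adjusted p = 0.0370). This call was lost in 12 of 18 alternatives, among them TPM (adjusted p = 0.224), plain read totals (0.301) and leaving out any 1 library except control replicate 3 (adjusted p of 0.0832 to 0.104). Those 2 scalings raise the median of all genes by 0.07, beside an NR1D2 fall of 0.14.

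NR1D1 (chromosome 17, 40092787 to 40100725) stood at 6.95, 5.77 and 7.97 FPKM in control and 5.26, 5.75 and 6.70 in PAL. The groups overlapped, and the difference of -0.19 ± 0.12 (SE) did not pass (limma adjusted p = 0.268, 95% voom interval -0.46 to 0.017). Of its exon length, 9.49% is shared with THRA on the opposite strand, at 3.91 FPKM in control and 4.32 in PAL. No source used here says whether counting used strand, so reads in the shared part cannot be told apart.

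DBP (chromosome 19, 48630030 to 48637438), an activator at D-boxes and a classic output of the loop, stood at 1.32, 1.60 and 1.80 FPKM in control and 0.739, 0.998 and 0.813 in PAL. Every PAL library lay below every control. DBP fell by 0.47 ± 0.10 (SE) on the log2(FPKM + 1) scale (limma adjusted p = 0.0143). Only its control libraries met the FPKM filter. On its 89 to 182 reads, which meet the read filter in every library, voom gave -0.89 (95% interval -1.21 to -0.57, adjusted p = 2.28e-04). The call was lost without PAL replicate 1 (adjusted p = 0.0503), with no filter (0.0540) and without both libraries numbered 3 (0.0869). SPHK2, on the opposite strand, shares 10.1% of the DBP exon length and averaged 5.68 FPKM in control and 5.74 in PAL. Reads in that shared part cannot be told apart either, so the level of DBP and the size of its fall are less certain.

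CIART (chromosome 1, 150282543 to 150287093), a repressor of the CLOCK complex, was barely detected. It stood at 0.398, 0.225 and 0.239 FPKM in control and 0.161, 0.111 and 0.161 in PAL. These levels rest on 17, 9 and 10 reads in control and 8, 5 and 8 in PAL, so the 1.99-fold ratio of means comes from few reads. The groups did not overlap, and CIART did not pass in the fit with no filter (adjusted p = 0.208).

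Across the set, 9 of 10 means were lower in PAL and 7 of 10 genes had groups that did not overlap. No share of lower means over all genes was taken beside that count, and 3 of the 10 genes lay under the filter. Among the 7 tested, 5 did not overlap and were lower and 1 was higher, and of all 12258 genes tested 23.6% did not overlap and were lower and 21.4% higher. The median log2 difference of the 7 was -0.19, beside 0.0043 over all genes tested. Since a gene enters the test when 1 group is high enough, these figures describe the 7 and not all 10.

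The order of levels changed at 2 places. In control it ran NR1D2, NR1D1, CRY1, PER1, CLOCK, DBP, CRY2, PER2, PER3 and CIART, where the ranges of NR1D1 and CRY1, CRY1 and PER1, PER1 and CLOCK, and PER3 and CIART overlapped. In PAL, PER1 stood below CLOCK and DBP below CRY2, in both cases with ranges that did not overlap. For DBP and CRY2 the gap was very narrow, with the highest DBP at 0.998 FPKM and the lowest CRY2 at 1.005. The ranges of NR1D1 and CRY1, and of PER2 and PER3, overlapped in PAL. FPKM here divides by the summed exons of all isoforms.

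Other genes of the clock were read from 5 lists. Over all genes tested, limma called 14.5% lower and 11.4% higher, and voom on reads 15.4% and 11.4%. In the list of the positive limb and secondary loops, 2 of the 7 tested genes (of 11) were lower and 0 higher in limma, with 1 higher at an unadjusted p below 0.05. Voom on reads called 3 of 9 lower and 1 higher. NFIL3, the repressor that competes with DBP for D-boxes, stood at 14.1, 15.4 and 16.6 FPKM in control and 2.16, 3.48 and 2.94 in PAL. It fell by 2.09 ± 0.13 (SE; limma adjusted p = 8.34e-05), a larger fall than that of any of the 10 clock genes. BHLHE40, which encodes the E-box repressor DEC1, stood at 8.0, 8.74 and 14.3 FPKM in control and 4.07, 3.72 and 4.10 in PAL, and fell by 1.15 ± 0.19 (SE; adjusted p = 0.00575).

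The genes of BMAL1, its relative and the relative of CLOCK did not pass. ARNTL averaged 1.25 ± 0.139 FPKM in control and 1.12 ± 0.141 in PAL (n = 3 each), and ARNTL2, which encodes BMAL2, 2.42 ± 0.241 and 2.75 ± 0.371. NPAS2, a relative of CLOCK that also pairs with BMAL1, averaged 8.47 ± 0.147 and 8.59 ± 0.432. All 3 were chosen after their values were seen, and none passed in limma (adjusted p of 0.513, 0.337 and 0.808) or with voom. TEF, a relative of DBP named in the same way, was at 1.05, 1.27 and 1.45 FPKM in control and 1.63, 1.68 and 1.69 in PAL. Its groups did not overlap, with TEF higher in PAL where DBP was lower. It did not pass in limma (adjusted p = 0.0734) and passed as higher with voom on reads (0.42, adjusted p = 0.0360).

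Among kinases, ligase parts and partners of the PER and CRY proteins, members differed in both directions. Of 13 tested genes (of 14), 1 was higher and 0 lower in limma, with 2 lower at an unadjusted p below 0.05. Voom on reads called 1 higher and 2 lower, CSNK1A1 (-0.16, adjusted p = 0.00866) and NONO (-0.08, adjusted p = 0.0198), both named after their values were seen. CSNK2B, the regulatory subunit of casein kinase 2, rose from 4.25 ± 0.346 to 5.19 ± 0.384 FPKM (n = 3 each, limma adjusted p = 0.0468), a call lost in 8 of 17 alternatives. Leaving out any 1 library except PAL replicate 3 was among them, with adjusted p of 0.0683 to 0.142. USP2, a deubiquitinase also named after its values were seen, stayed under the FPKM filter at 0.353 ± 0.0392 in control and 0.213 ± 0.0465 in PAL (n = 3 each). Its groups did not overlap, and it did not pass with voom (adjusted p = 0.0758). The median difference of this list was -0.01.

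CREB signalling drives PER1 in response to cAMP and calcium. Of 10 tested genes of this list (of 11), 2 were lower and 0 higher in limma, not far from the 14.5% lower over all genes. At an unadjusted p below 0.05, 0 were higher. Voom on reads also called 2 lower and 0 higher. The coactivator EP300 fell from 7.91 ± 0.335 to 6.41 ± 0.318 FPKM (n = 3 each, limma adjusted p = 0.00986), a call lost in 1 of 18 alternatives, without both libraries numbered 3 (adjusted p = 0.0573), where 0 of the list were lower. Its relative CREBBP fell from 7.90 ± 0.277 to 6.87 ± 0.271 FPKM (limma adjusted p = 0.0289), a call lost in 10 of 18 alternatives. CREB1 and the CRTC genes did not pass in limma. These and SIK1 were named after their values were seen. SIK1, a kinase that restrains the CRTC proteins and is itself a CREB target, stayed under the filter at 0.576, 0.372 and 0.0980 FPKM in control and 0.0103, 0.0682 and 0.0206 in PAL. SIK1 has a near-identical copy, so its reads may be split.

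The glucocorticoid receptor and its targets gave 0 calls among 4 tested genes (of 6) in limma, with 1 lower at an unadjusted p below 0.05 and 2 lower with voom on reads. SGK1, a kinase induced by the receptor, was at 11.7, 11.6 and 8.67 FPKM in control and 6.51, 7.39 and 9.09 in PAL (limma adjusted p = 0.0630), with overlapping groups. It passed in 6 of 18 alternatives, among them voom on reads (-0.48, adjusted p = 0.00232) and the fit without control replicate 3 (adjusted p = 0.0238) or PAL replicate 3 (0.0367). The other voom call was TSC22D3, the glucocorticoid-induced leucine zipper, under the FPKM filter and named after its values were seen (-0.70, adjusted p = 0.00951). NR3C1, the receptor itself, was at 7.50 ± 0.0597 and 6.97 ± 0.359 FPKM (n = 3 each, limma adjusted p = 0.167).

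Clock-controlled output genes were lower in 5 of 5 tested cases (of 6 listed) in limma, and in 5 of 6 with voom on reads. KLF15, the listed gene outside the limma count, stayed under the FPKM filter and was named after its values were seen. It averaged 0.443 ± 0.0885 FPKM in control and 0.582 ± 0.0748 in PAL (n = 3 each), with overlapping groups. Its voom difference of 0.40 did not pass (adjusted p = 0.316). KLF10, a zinc finger factor also induced by TGF-beta, fell from 31.8 ± 1.73 to 10.03 ± 0.968 FPKM (n = 3 each, limma adjusted p = 2.78e-05). NOCT, the deadenylase-like phosphatase nocturnin, was at 9.74, 10.9 and 15.3 FPKM in control and 4.97, 5.29 and 5.61 in PAL. WEE1, a brake on mitotic entry, and NAMPT, an enzyme of NAD synthesis, were named after their values were seen and fell by 0.83 and 0.25 on the log2 scale. Several of these genes are known to respond to growth factors and stress as well as to the clock, and the lists were drawn up with results of these data known. The median log2 difference of the 5 genes tested in limma was -1.02, which leaves out KLF15.

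**Figure D3:**
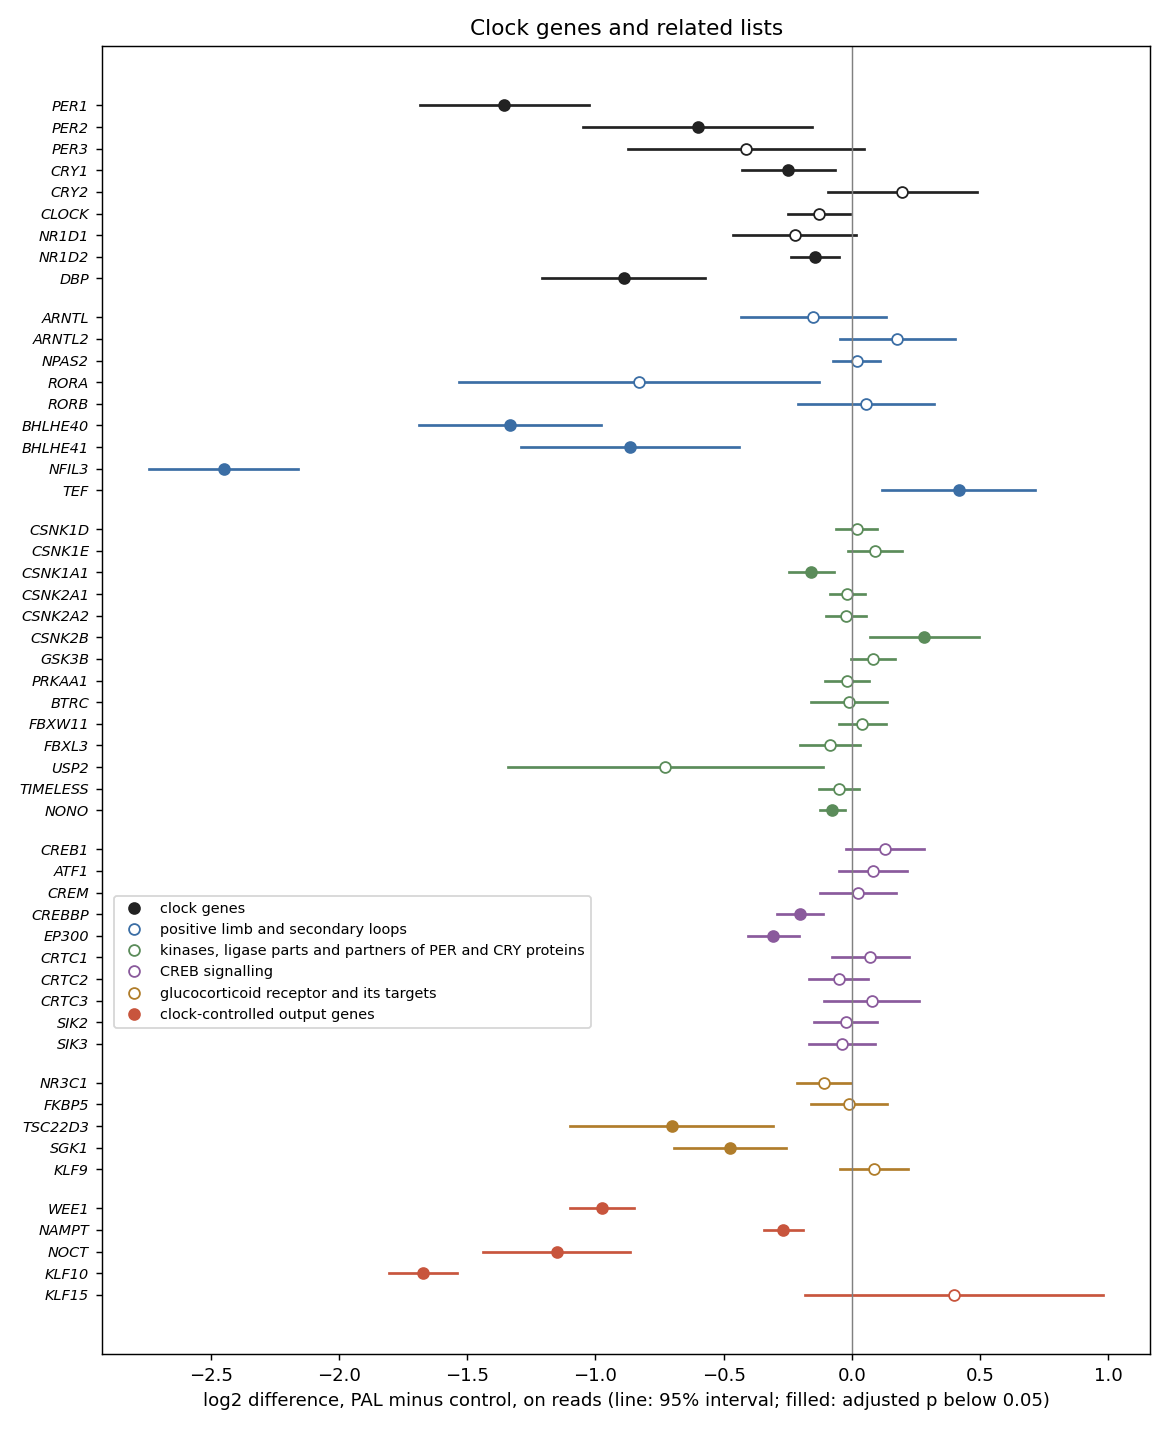
Log2 differences, PAL minus control, from the voom fit on reads (horizontal axis) for the 9 clock genes and the genes of 5 related lists that it tested, less 1 output gene that is not shown, with lines for 95% intervals and filled circles for an adjusted p below 0.05. Of the genes shown, NFIL3, KLF10, PER1 and BHLHE40 lie farthest below 0, whereas most kinases and CREB genes gather near 0.

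Control replicate 3 was the highest control library for 6 of the 10 clock genes: PER1, PER2, CRY1, CRY2, NR1D1 and DBP. BHLHE40 and NOCT were also highest there, whereas SIK1 and FOS were lowest there among the controls. Without that library, BHLHE40 fell by 0.92 (limma adjusted p = 5.25e-04) and NOCT by 0.85 (adjusted p = 9.34e-04). For CRY1 the log2 difference went from -0.21 to -0.11 without it.

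**Figure D4:**
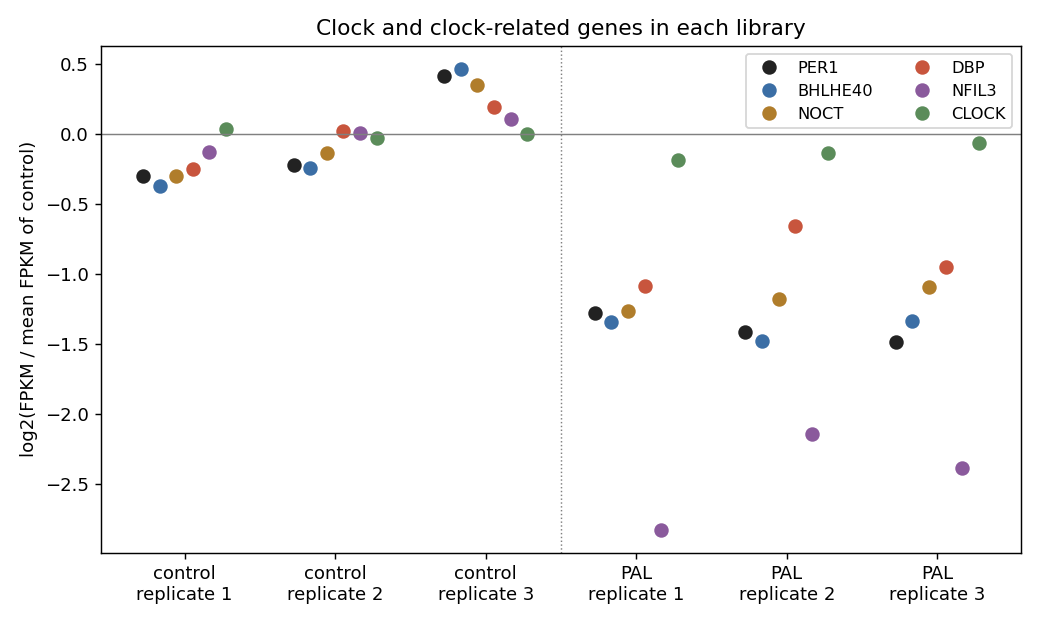
Log2 of FPKM over the mean of control (vertical axis) for PER1, BHLHE40, NOCT, DBP, NFIL3 and CLOCK in each of the 6 libraries. Control replicate 3 holds the highest PER1, BHLHE40 and NOCT, all PAL points of the 5 called genes lie below their control points, and CLOCK stays near 0.

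The genes closest in profile were sought by the root mean square difference of centred log2(FPKM + 1) over the 6 libraries, a description with no test. For PER1 they were ZC3HAV1 (0.0755), a zinc finger antiviral protein, HSPA4L (0.0764), a chaperone of the HSP110 family, and KLF5 (0.0956), a zinc finger factor. HSPA4L stood at 3.97, 4.65 and 6.67 FPKM in control and 1.76, 1.73 and 1.71 in PAL, close to PER1 in level as well, with control replicate 3 highest in both. For DBP they were ZBTB21 (0.0409), SEC24A (0.0502) and the cell cycle inhibitor CDKN1A (0.0503). For NR1D2, whose profile spans a small range, they were ASH2L (0.00678), FAM3C (0.0107) and DNAJC2 (0.0110).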

How the data were processed

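The authors deposited 1 table of FPKM per gene and library; the labels give poly-A enriched RNA, and the submitters' processing notes list hg38. No source used here names the aligner, the counter or the use of strand. Lengths of the 10 clock genes equal the summed exons of GENCODE release 29. FPKM times length stepped by whole reads for 100% of values above 0 (within 0.01), so reads were recovered. The library size behind FPKM was 0.980 to 0.984 of the assigned reads in control and 1.04 to 1.05 in PAL. Relative to each other, these sizes were 0.999 to 1.001 of median-of-ratios sizes, which come from each gene's reads over its geometric mean across libraries.

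Genes that reached 1 FPKM in 3 or more libraries were fitted in limma 3.58.1 (R 4.3.3) on log2(FPKM + 1) with a variance trend, two-sided, with Benjamini-Hochberg adjustment across all genes tested. The script was checked on simulated data with 200 changed genes, far fewer than were called here, and with an assumed spread. There it called 4.08% of genes changed 1.25-fold and 66.0% of those changed 1.5-fold. Those shares hold for the simulated setting and do not give the share detected in the real data. Small differences can still go uncalled. Alternatives covered pseudocount, filter, scaling, variance model, replicate block, voom and left-out libraries. Voom with at least 10 reads in at least 3 libraries was added later. Columns were matched to samples by title.

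Members, lists and motifs were chosen with earlier results of these data known. Named genes are the 10 members, up to 3 rises and 3 falls per list (the 2 highest where none passed), and 3 nearest profiles per called member; others are marked. One listed output gene is counted in its list and not reported here. Figures used matplotlib 3.10.9.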

Additional observations from a re-analysis of the deposited data

How the results depend on the processing

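No clock gene was called higher under any of the 18 alternatives. The count called lower was 3, and became 1 with no filter (PER1), 1 with a mean of at least 5 FPKM (NR1D2, as PER1 and DBP were then not tested), 1 without both libraries numbered 3 (PER1) and 5 with voom on genes with at least 10 reads. It ranged from 1 (without PAL replicate 1) to 3 when 1 library was left out. Over all genes, 1399 rises became 765 with no filter, 2697 as TPM, 3097 with plain read totals and 838 with the replicate block, and ranged from 688 to 1202 with 1 library left out. The 1780 falls became 1170 as TPM and 1130 with plain read totals, and ranged from 1167 to 1587. Rises made up 69.7% of the calls as TPM, 59.2% after quantile normalization and 73.3% with plain totals. Plain read totals use the assigned reads in place of the library size behind FPKM, which by itself raises PAL against control. The cause of the other shifts was not tested. No sign was seen that replicate numbers pair the samples, though 3 libraries per group cannot exclude it. Deviations of libraries with the same number correlated at -0.0239, 0.0273 and -0.0447. Only the libraries numbered 2 correlated best with their own number. With the replicate block, 2 clock genes were lower (PER1 and DBP). The 41 to 82 reads of PER2 and 5 to 17 reads of CIART limit what could be detected for them.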
